A study of Mus musculus with 39 samples.

Results

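The comparison described here set 3 libraries of mouse lung fibroblasts given C1q at 100 µg/ml for 24 h against the 6 libraries given 1 or 10 µg/ml for the same time. These are 9 of the 39 libraries of the series, and were chosen by the dose and time in their labels, with equal weight for each of the lower doses. All cells came from the lungs of wild-type C57BL/6 mice from which cells positive for CD31, CD45, CD146, EpCAM or Ter119 had been taken out with magnetic beads. They were starved of serum for 24 h before C1q was added, so the starvation is common to every group. The other libraries of the series received the same 3 doses for 2, 48 or 72 h or were left untreated at 0 h, with 3 libraries for each dose and time. There was no untreated culture kept for 24 h among the samples analysed here, so the untreated cells differ from the 9 libraries in time as well as in C1q.

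C1q recognises the targets of the classical complement pathway. It binds antibodies, dying cells and other targets, and with the proteases C1r and C1s it starts the cleavage of complement components C4 and C2. Lung fibroblasts make collagens, elastin and other matrix proteins, the enzymes that remodel them, growth factors and several complement proteins, and some of them turn into contractile, alpha smooth muscle actin-positive cells in wounds and in fibrosis. The comparison asks which transcripts separated the highest dose from doses 10-fold and 100-fold lower once the cells had been exposed for 24 h.

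The assay read the 5′ ends of poly(A) transcripts, and the deposited values were whole-number counts per gene. The 9 libraries held 2313243 to 2884110 counts. Levels are given in CPM, a gene's count in parts per mega-count of its library's total after TMM scaling (edgeR's correction for differences in composition). Differences are on the log2 scale, 100 µg/ml minus the average of the lower doses, with a standard error (SE). A gene was called when the adjusted p of edgeR's quasi-likelihood test was under 0.05. The SE was derived from that test, as the size of the difference over the square root of its F statistic. Fibroblast genes were abundant, with 2966 to 3892 counts of Col1a1 in the libraries at 100 µg/ml and 3528 to 4247 at the lower doses. The leukocyte gene Ptprc, which encodes CD45, had 7 to 10 counts at 100 µg/ml and 5 to 15 at the lower doses, and Pecam1, which encodes CD31, had 16 to 26 counts at 100 µg/ml and 10 to 26 at the lower doses. Epcam had 96 to 128 counts at 100 µg/ml and 94 to 161 at the lower doses. Mcam, which encodes CD146, had 41 to 67 counts at 100 µg/ml and 28 to 59 at the lower doses. The labels do not say whether replicates were separate cultures or animals, and the RNA is bulk, so fewer cells of a type and less RNA per cell cannot be told apart.

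The libraries at 100 µg/ml lay apart from the others on the first principal component, which held 27.3% of the variance, at 27.9, 22.7 and 23.9. Those at 10 µg/ml lay at -11.8, -6.88 and -10.8, and those at 1 µg/ml at -22.7, -23.7 and 1.43. The last of these is the third library of 1 µg/ml, which stood apart from its own replicates. Its counts differed from theirs with a chi-square per degree of freedom of 8.02 and 8.48, against 1.46 to 3.27 in the other replicate pairs. That library and all 6 at 10 and 100 µg/ml share 1 spelling of the name in the column headers, and the other 2 at 1 µg/ml have another. Where results among the libraries of 1 header spelling are given below, those 2 were left out of the fit. The third library then stood alone for 1 µg/ml. Libraries of other times and of untreated cells stayed in that fit under either spelling.

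**Figure D1:**
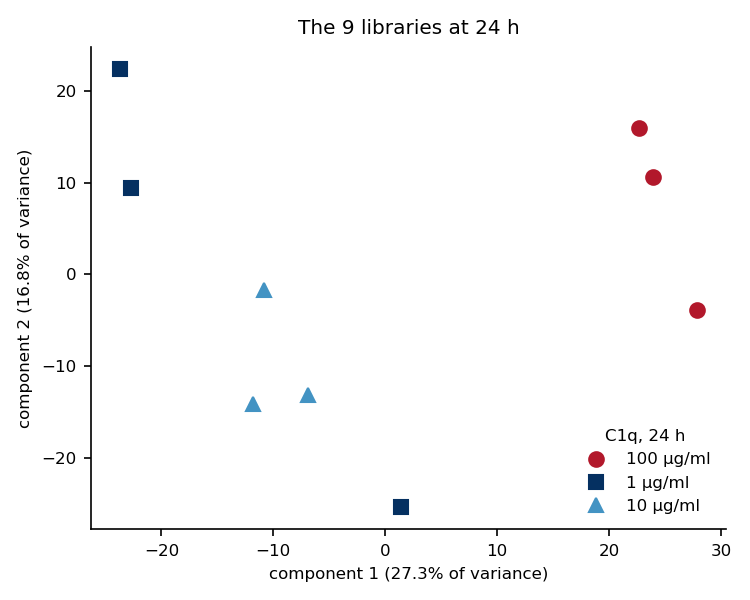
The 9 libraries at 24 h on the first and second principal components of log2 expression, with 1 point per library and the share of variance on each axis. The 3 libraries at 100 µg/ml lie at 22.7 to 27.9 on the first component, to the right of all 6 lower-dose libraries, and 1 library at 1 µg/ml lies at 1.43, away from its replicates.

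Of 14419 genes tested, 2095 (14.5%) were called. These were 827 higher at 100 µg/ml (5.74%) and 1268 lower (8.79%), so calls leaned towards lower, and the median difference over all genes was 0.0282. The counts of calls in the gene lists described further on stand against these shares of all genes. Irrespective of the test, 930 genes lay wholly above the lower-dose libraries at 100 µg/ml (6.45%) and 1179 wholly below (8.18%), 14.6% in all. Most differences were modest: the median size was 0.480 on the log2 scale among the genes called higher and 0.474 among those called lower, and 82 higher and 109 lower genes differed by at least 1. With libraries scaled by their totals alone, 1887 genes were called higher and 775 lower, and the median difference over all genes was 0.143. DESeq2 called 488 genes higher and 1151 lower. Without the library of 1 µg/ml that stood apart, 2536 genes were called, and without the third library of 100 µg/ml, 1294.

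The leading rise was Lrp11, which encodes a membrane protein, at chr10:7589817-7624768 of GRCm38. It stood at 17.4, 19.7 and 17.1 CPM at 100 µg/ml, against 3.58 to 7.47 CPM with a median of 3.88 CPM at the lower doses. The difference was 2.01 ± 0.21 (SE; adjusted p = 1.92e-09). Serpini1 (chr3:75557493-75642523), which encodes the protease inhibitor neuroserpin, stood at 13.5, 17.2 and 12.5 CPM at 100 µg/ml, against 3.67 to 6.80 CPM with a median of 5.18 CPM at the lower doses. Its difference was 1.46 ± 0.22 (SE; adjusted p = 3.63e-06). Jade2, a chromatin and ubiquitin ligase protein, differed by 1.17 ± 0.18, the orphan receptor gene Gpr176 by 1.05 ± 0.17, and Glt8d2, which encodes a glycosyltransferase-like protein, by 0.91 ± 0.12. That the groups of these 5 do not overlap follows from the rule by which they were named. The heat shock genes Hspa1b and Hspa1a, whose sequences are nearly identical so that reads may be shared between them, were higher by 0.99 ± 0.15 and 0.90 ± 0.18. Hspa1b stood at 27.7, 19.4 and 22.99 CPM at 100 µg/ml, against 8.78 to 15.2 CPM with a median of 11.2 CPM at the lower doses. Untreated cells held 20.9 ± 1.46 CPM of Hspa1b, inside the range at 100 µg/ml.

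Among the falls were more abundant transcripts. Serpina3n (chr12:104406646-104414334), an acute-phase protease inhibitor, stood at 346, 417 and 419 CPM at 100 µg/ml, against 906 to 1117 CPM with a median of 1000.0 CPM at the lower doses. This is a difference of -1.36 ± 0.08 (SE; adjusted p = 3.51e-17), with groups far apart, and the untreated mean was 282 ± 20.7 CPM (SD, n = 3). The complement gene C7 (chr15:4987750-5063773), whose product belongs to the membrane attack complex, stood at 7.92, 4.39 and 4.88 CPM at 100 µg/ml, against 18.9 to 30.5 CPM with a median of 22.9 CPM at the lower doses. It had the largest fall of the genes named by rule, -2.02 ± 0.23 (SE; adjusted p = 1.11e-08), and untreated cells, at 5.82 ± 2.83 CPM, were near the highest dose. Apln, which encodes the vasoactive peptide apelin, followed at -1.99 ± 0.23. Arxes1 and Arxes2, a pair of near-identical adipocyte genes whose reads may be shared, differed by -1.91 ± 0.18 and -1.59 ± 0.15. Further falls were those of Frmd5, a FERM domain gene (-1.87 ± 0.18), Aldh1a3, a retinoic acid-forming dehydrogenase (-1.55 ± 0.21), Pcsk5, a proprotein convertase (-1.499 ± 0.12), Penk, the enkephalin precursor (-1.39 ± 0.14), and Ptn, the growth factor pleiotrophin (-1.36 ± 0.20). The rule that named these genes required groups without overlap and the call to be kept with any of the 9 libraries left out.

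**Figure D2:**
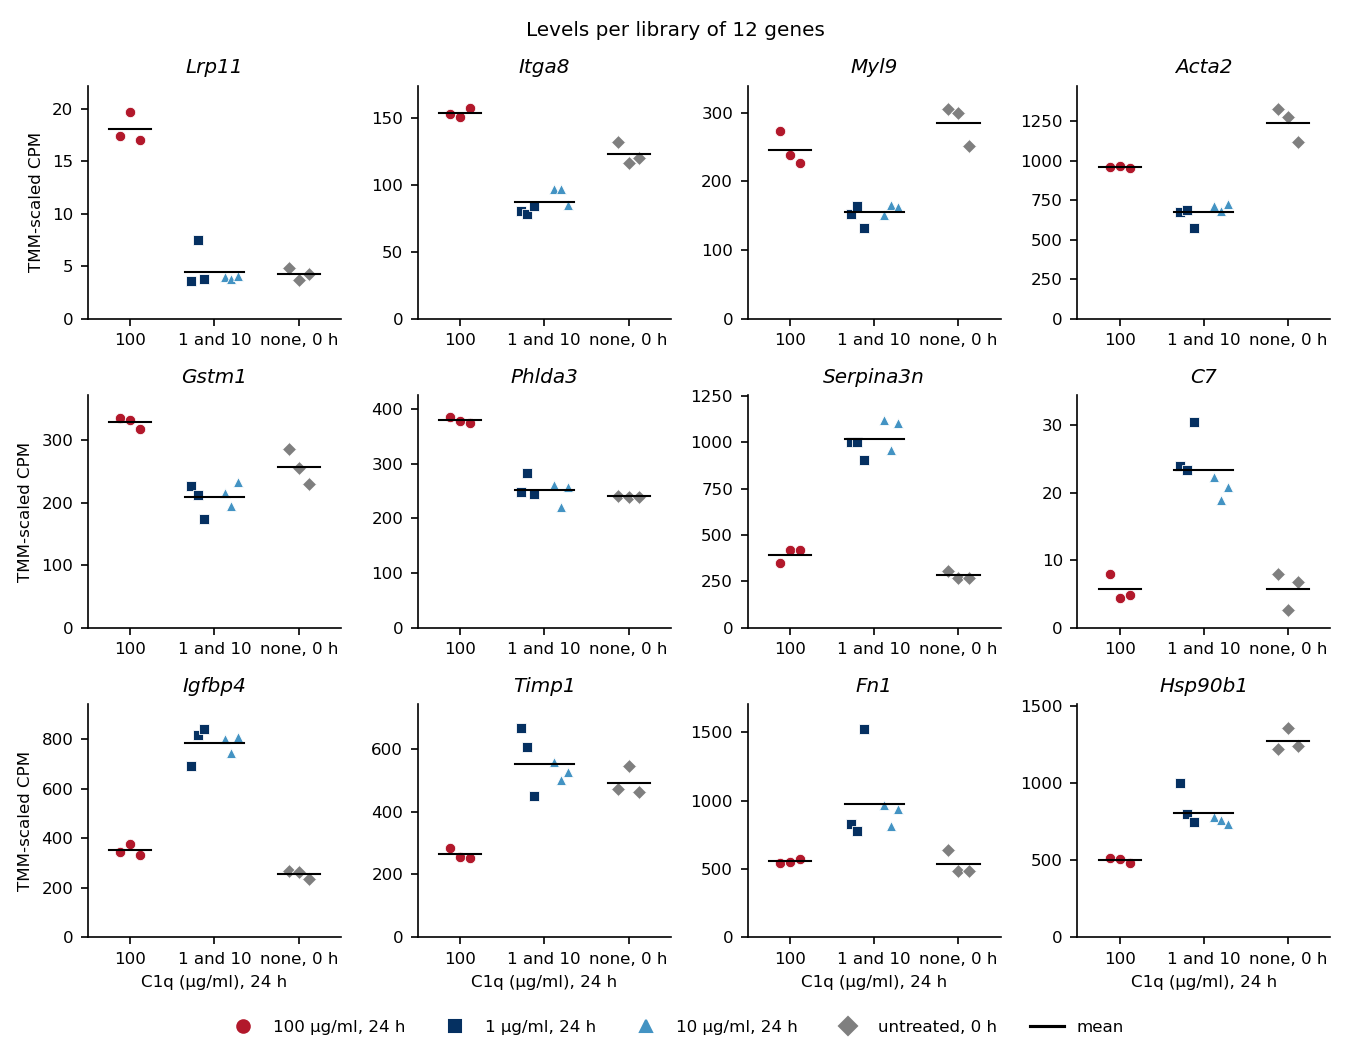
TMM-scaled CPM of 12 genes in each library, with 100 µg/ml at the left, 1 and 10 µg/ml in the middle and untreated cells at 0 h at the right, and a line at each mean. In all 12 panels the 3 libraries at 100 µg/ml lie wholly above or wholly below the 6 at the lower doses. The 12 genes were picked by hand, and for Lrp11, Serpina3n and C7 this was a condition of naming. It held for 14.6% of all genes tested.

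The genes of the ribosome fell together at 100 µg/ml. Ribosomal proteins build the ribosome's subunits, and their transcripts, like those of several translation factors, begin with a run of pyrimidines, the 5′ terminal oligopyrimidine tract, through which their translation is controlled. All 82 ribosomal protein genes tested were called lower, where 8.79% of all genes were, with differences from -0.987 to -0.251 and a median of -0.544. Rpl13a (chr7:45125563-45128745) stood at 1803, 1760.0 and 1667 CPM at 100 µg/ml, against 2284 to 2923 CPM with a median of 2715 CPM at the lower doses. Its difference was -0.62 ± 0.081 (SE; adjusted p = 1.90e-07), and the groups did not overlap. Ribosomal protein genes took 7.04%, 7.25% and 6.96% of all counts at 100 µg/ml, and 7.84% to 10.1% at the lower doses, the lowest of these in the library of 1 µg/ml that stood apart. The mean shares were 7.09% ± 0.153 (SD, n = 3) and 9.31% ± 0.775 (SD, n = 6), with 10.1% ± 0.353 in untreated cells (SD, n = 3). The difference was -2.22 percentage points, and the groups did not overlap. With libraries scaled by their totals alone, 76 of the 82 were still called lower and none higher. Leaving out any 1 library left 77 to 82 calls. Transcripts of ribosomal pseudogenes are near-identical to their parents and may share reads with them.

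Of 18 translation factors and related genes with such tracts, 13 fell (72.2%, against 8.79% of all genes) and none rose, with a median of -0.399. They included Tpt1, a growth-related microtubule-binding protein (-0.56 ± 0.09), Npm1, a nucleolar chaperone (-0.55 ± 0.10), and Eef1a1, the elongation factor that brings aminoacyl-tRNA to the ribosome (-0.32 ± 0.06). Eef1a1, among the most abundant transcripts, stood at 5574, 6082 and 5957 CPM at 100 µg/ml, against 7035 to 7702 CPM with a median of 7297 CPM at the lower doses.

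The tract can be read from the start regions of some of these genes. Printed here are 3 of them from RefSeq's GRCm38.p6 promoter table, 20 bases on each side of the annotated start, 5′ to 3′ on the gene's strand, with capitals marking a C followed by at least 6 pyrimidines that begins within 5 bases before to 11 after the start. The search began 5 bases before the start, so a run that reaches further upstream is marked only from there. In Rpl35 the lower-case bases just before the capitals are pyrimidines too. Rpl35 lies at chr2:39005112-39005151 on the minus strand, Rps18 at chr17:33955646-33955685 on the minus strand and Fau at chr19:6057927-6057966 on the plus strand.
Rpl35: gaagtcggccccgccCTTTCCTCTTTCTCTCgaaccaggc
Rps18: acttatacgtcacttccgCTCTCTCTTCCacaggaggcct
Fau: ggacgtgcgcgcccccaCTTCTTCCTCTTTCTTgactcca
Rpl35 fell by 0.48 on the log2 scale, Rps18 by 0.47 and Fau, whose product is processed into ribosomal protein S30, by 0.51. Such a run was found in 27 of the 61 ribosomal protein genes with a promoter in the table (44.3%), against 10.8% of all 27025 genes with a promoter there. Ribosomal protein genes with the run had a median difference of -0.538 and those without it -0.55. Among tested genes outside the ribosomal and translation factor lists, 7.71% of those with a run were called lower and 7.96% of those without.

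Transcript length moved with the same comparison. Spliced lengths were available for 13157 tested genes (91.2%). With the ribosomal protein genes left out and the rest ordered by length into 5 groups of like size, 18.3% of the shortest group (up to 1915 bases) were called lower and 3.71% higher, with a median difference of -0.117. Of the longest group (5272 bases and more), 3.67% were called lower and 8.64% higher, with a median of 0.0851. Between 10 and 1 µg/ml these groups had medians of 0.0204 and -0.0302, and in the comparison of 100 with the lower doses at 2 h 0.0511 and -0.0658, with the shorter transcripts on the positive side in both. The comparison of 100 with the lower doses at 48 h had medians of -0.0728 and 0.0552 in these groups, and that at 72 h -0.0809 and 0.0526, in the same direction as at 24 h. The part of length in the results for ribosomal protein genes, histone genes and the other lists was not tested. The shares over all genes, given beside the lists, take no account of length.

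**Figure D3:**
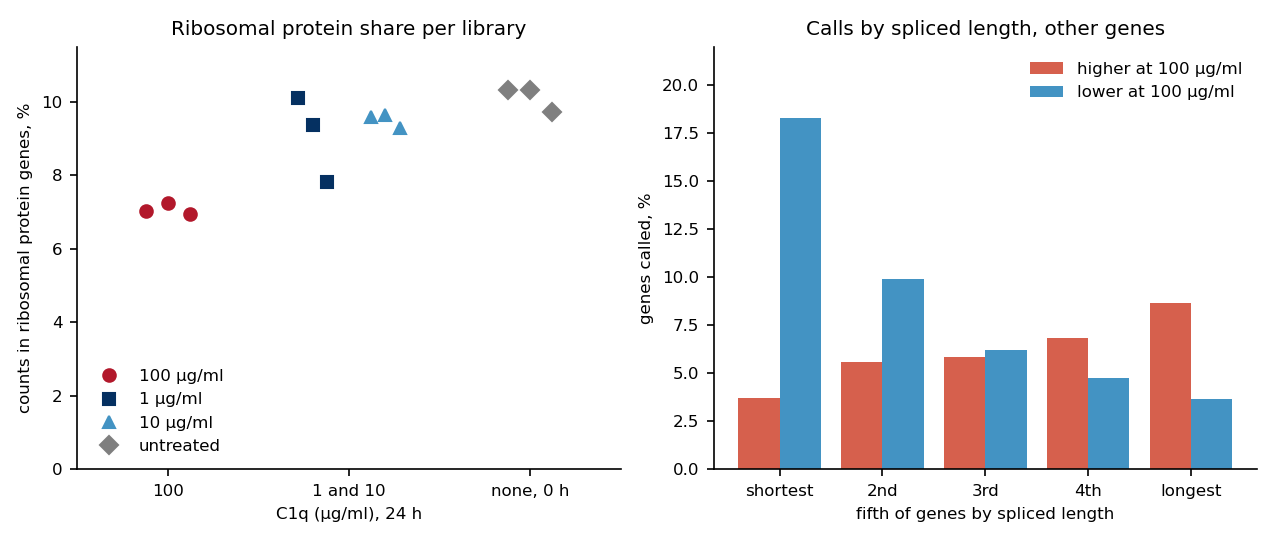
Left, percent of each library's counts in ribosomal protein genes, with 1 point per library and 100 µg/ml at the left. Right, percent of genes called higher and lower at 100 µg/ml in 5 groups of spliced length, without the ribosomal protein genes. The 3 libraries at 100 µg/ml lie between 6.96% and 7.25%, below all lower-dose libraries, and lower calls go from 18.3% of the shortest to 3.67% of the longest group.

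Many genes for folding secreted proteins in the endoplasmic reticulum (ER) were also lower. This list holds chaperones, disulfide isomerases and translocation proteins, many of which are induced in the unfolded protein response through transcription factors ATF6 and XBP1. Of 27 tested, 14 fell (51.9%) and 1 rose, with a median of -0.25. Hsp90b1 (chr10:86690841-86705444), which encodes the chaperone GRP94, stood at 515, 508 and 479.7 CPM at 100 µg/ml, against 735 to 999 CPM with a median of 773 CPM at the lower doses. It differed by -0.68 ± 0.081 (SE; adjusted p = 2.50e-08), without overlap, and untreated cells were higher still, at 1272 ± 72.8 CPM (SD, n = 3). Hspa5, the master chaperone BiP, stood at 447, 483 and 512 CPM at 100 µg/ml, against 559.6 to 699 CPM with a median of 639 CPM at the lower doses. The difference was -0.40 ± 0.068 (SE; adjusted p = 2.40e-05). Calr, the calcium-binding chaperone calreticulin that is also a described receptor for C1q's collagen-like tails, fell by 0.56 on the log2 scale, and Pdia6, a disulfide isomerase, by 0.57. Of 14 described C1q receptor genes tested, 2 were higher (14.3%, against 5.74% of all genes) and 1 was lower (7.14%, against 8.79%). Sdf2l1, a partner of BiP, differed by -0.90 ± 0.15 and Sec61b, a subunit of the translocation channel, by -0.83 ± 0.10.

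A part of the unfolded protein response is known to act through the ER stress response element, CCAAT and CCACG parted by 9 bases. The promoters of 4 called genes are shown around that motif, from RefSeq's GRCm38.p6 table, on the gene's strand and with capitals marking the match in either orientation. Hspa5 lies at chr2:34772015-34772053 (plus strand), Hsp90b1 at chr10:86705523-86705666 (minus strand), Calr at chr8:84847065-84847103 (minus strand) and Pdia6 at chr12:17266481-17266519 (plus strand).
Hspa5: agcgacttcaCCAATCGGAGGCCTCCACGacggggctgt
Hsp90b1: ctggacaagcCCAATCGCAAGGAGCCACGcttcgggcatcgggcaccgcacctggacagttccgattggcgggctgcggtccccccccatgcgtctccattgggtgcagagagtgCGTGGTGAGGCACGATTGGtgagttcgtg
Calr: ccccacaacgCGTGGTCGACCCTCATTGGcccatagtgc
Pdia6: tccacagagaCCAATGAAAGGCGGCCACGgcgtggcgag
CCAAT and CCACG with 9 bases between them were sought on either strand in promoters of 300 bases. They occurred in 9 of 23 ER list genes with a promoter (39.1%) and in 0.137% of all 27025 such genes. Of the 19 tested genes with it, 6 were called lower (31.6%, against 8.79% of all genes) and none higher. Outside the list 1 of 10 genes with it was lower (10%), against 8.41% of those without, and the median difference of those 10 was 0.242. The 1 gene of the 6 outside the list was Hnrnpa3, an RNA-binding protein (-0.44 ± 0.08), which was singled out after its value was seen. A match is a description of the sequence and not evidence of binding.

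Cholesterol synthesis moved the same way. These genes are switched on by SREBP2 when sterols are short. Of 25 tested, 16 fell (64%, against 8.79% of all genes) and none rose, with a median of -0.341. Tm7sf2, a sterol reductase, stood at 35.2, 39.9 and 32.05 CPM at 100 µg/ml, against 63.1 to 74.5 CPM with a median of 71.8 CPM at the lower doses, a difference of -0.99 ± 0.11 (SE; adjusted p = 2.66e-09). Mvd, the decarboxylase of the mevalonate pathway, differed by -0.81 ± 0.13, and Fdps, which makes farnesyl diphosphate, by -0.68 ± 0.09. Hmgcs1, an early step, fell by 0.39 on the log2 scale. Untreated cells held more Fdps than either dose range, at 767 ± 42.2 CPM (SD, n = 3), against 180.1 to 190.4 CPM at 100 µg/ml and 247 to 356 CPM at the lower doses. With libraries scaled by totals alone, or among the libraries of 1 header spelling, 10 of the list were called lower. Of 17 fatty acid synthesis genes, 5 were lower (29.4%) and none higher. The desaturase gene Scd1 was among the 5 (-0.35 ± 0.08). With scaling by totals alone 2 of these genes were lower, and leaving out any 1 library left 2 to 6.

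**Figure D4:**
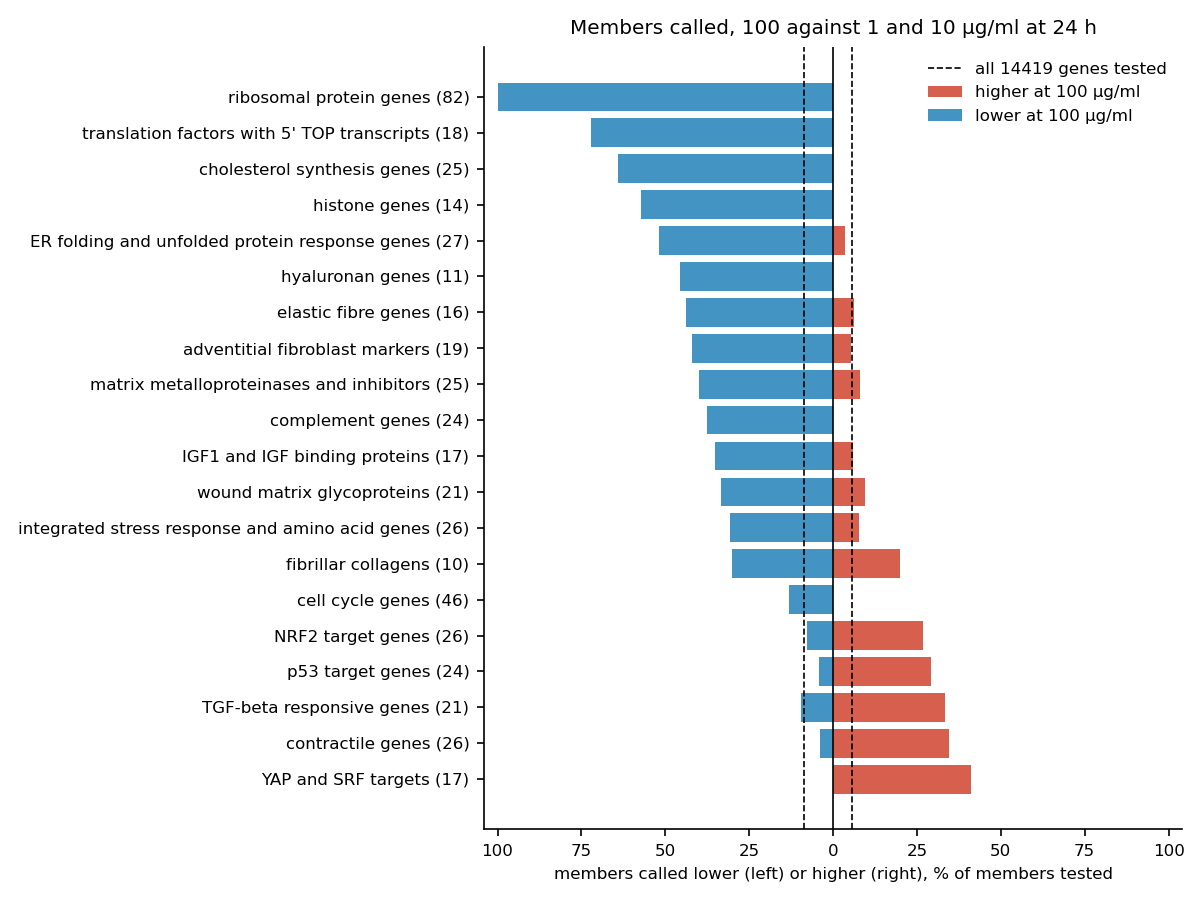
Percent of tested members called lower (bars to the left) or higher (bars to the right) at 100 µg/ml in 20 gene lists, with the number tested in brackets. Dashed lines mark the shares over all genes tested, 8.79% lower and 5.74% higher. All 82 ribosomal protein genes were lower, while contractile genes and YAP and SRF targets were mostly called higher or not called.

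Matrix genes went both ways. Among 10 fibrillar collagen genes 3 were lower (30%, against 8.79% of all genes) and 2 higher (20%, against 5.74%). DESeq2 called 2 of them lower and 1 higher. Differences in this list ran from -1.15 to 4.07. Col3a1, the type III collagen chain, stood at 1752, 1908 and 1944 CPM at 100 µg/ml, against 2461 to 3274 CPM with a median of 2957 CPM at the lower doses. It differed by -0.62 ± 0.075 (SE; adjusted p = 3.77e-08), with no overlap. Col1a1, the main type I chain, stood at 1174, 1289 and 1356 CPM at 100 µg/ml, against 1339 to 1777 CPM with a median of 1495 CPM at the lower doses, and its groups overlapped. The difference of Col1a1 was -0.25 ± 0.092 (SE; adjusted p = 0.0626), and it passed the threshold among the libraries of 1 header spelling, without the first library of 1 µg/ml, with no filter, with a robust fit and without the most abundant row of the table, at values of -0.37 to -0.25. Col1a2 fell by 0.27 on the log2 scale, a call lost without the first library of 100 µg/ml (-0.20) and with scaling by totals alone (-0.15). Col27a1, a fibrillar collagen of cartilage, differed by 0.89 ± 0.14, and Col28a1, a beaded-filament collagen, by -1.54 ± 0.13. Serpinh1, the collagen chaperone HSP47, differed by -0.43 ± 0.08 and Ppib, a prolyl isomerase of collagen folding, by -0.52 ± 0.09. In their list of 25 collagen maturation genes 6 were lower (24%, against 8.79% of all genes) and none higher. With scaling by totals alone, however, 3 were lower and 5 higher.

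Elastic fibre genes and the glycoproteins of wounds were lower in part. Of 16 elastic fibre genes 7 were lower (43.8%, against 8.79% of all genes) and 1 higher. Eln, which encodes elastin, stood at 545, 609 and 558 CPM at 100 µg/ml, against 843 to 1221 CPM with a median of 1062 CPM at the lower doses, a difference of -0.86 ± 0.10 (SE; adjusted p = 1.78e-08). Fbln1 differed by -0.66 ± 0.09 and Mfap2, a microfibril protein, by -0.57 ± 0.10, while Fbln5, needed for fibre assembly, differed by 0.42 ± 0.09. Of 21 wound matrix glycoprotein genes 7 were lower (33.3%) and 2 higher. Fn1, fibronectin, stood at 541, 547 and 574 CPM at 100 µg/ml, against 774 to 1525 CPM with a median of 884 CPM at the lower doses. The highest of its values belonged to the library of 1 µg/ml that stood apart. The difference was -0.81 ± 0.14 (SE; adjusted p = 3.35e-05), and -0.63 without that library. Spp1, the secreted glycoprotein osteopontin, stood at 142, 134 and 151 CPM at 100 µg/ml, against 239.7 to 376 CPM with a median of 273 CPM at the lower doses. Spp1 differed by -1.02 ± 0.10 (SE; adjusted p = 7.32e-10), Cthrc1, a collagen triple helix protein of activated fibroblasts, by -0.97 ± 0.13, the proteoglycan Vcan by -0.61 ± 0.12, and the adhesion modulator Tnc by -0.53 ± 0.12. Of 10 small leucine-rich proteoglycan genes 3 were lower (30%, against 8.79% of all genes) and 2 higher (20%, against 5.74%). Lum (-0.83 ± 0.15), Podn (-0.59 ± 0.08) and Dcn, decorin (-0.27 ± 0.07), were lower, while Ogn (0.37 ± 0.08) and Aspn (0.63 ± 0.10) were higher. The call of Dcn was lost without the first (-0.22) or the third (-0.26) library of 100 µg/ml, with scaling by totals alone (-0.16) and among the libraries of 1 header spelling (-0.21). The summed level of 12 general fibroblast markers, which include Col1a1, Col1a2, Col3a1 and Lum, was 7400 to 8080 CPM at 100 µg/ml and 9020 to 10400 CPM at the lower doses. In untreated cells it was 7700 to 8370 CPM. The part of this level in the matrix results was not tested.

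Some of the proteases and their inhibitors were lower. Of 25 matrix metalloproteinase and inhibitor genes 10 were lower (40%, against 8.79% of all genes), 2 were higher and 13 were not called. The lower and higher counts were 6 and 3 with scaling by totals alone. Timp1, the inhibitor of many metalloproteinases (chrX:20870166-20874737), stood at 284, 256 and 252 CPM at 100 µg/ml, against 452 to 667 CPM with a median of 543 CPM at the lower doses. It differed by -1.06 ± 0.093 (SE; adjusted p = 7.08e-12), with no overlap. Mmp3, stromelysin, stood at 244, 286 and 251 CPM at 100 µg/ml, against 397 to 490.4 CPM with a median of 459.8 CPM at the lower doses, a difference of -0.81 ± 0.076 (SE; adjusted p = 6.10e-11). Mmp8, a collagenase best known from neutrophils, differed by -1.34 ± 0.08, Mmp13, a collagenase, by -0.72 ± 0.23, and Mmp14, a membrane-bound activator, by -0.44 ± 0.07. The call of Mmp13 was lost without the first (-0.60) or the third (-0.55) library of 100 µg/ml, the first of 1 µg/ml (-0.62) or the first of 10 µg/ml (-0.60), with scaling by totals alone (-0.60) and among the libraries of 1 header spelling (-0.67). Among the higher genes was Mmp9, a gelatinase near the detection limit at 3.13 to 3.96 CPM at 100 µg/ml and 0 to 3.07 CPM at the lower doses.

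Complement genes, which encode the cascade that C1q starts, were lower in part. Of 24 tested, 9 fell (37.5%, against 8.79% of all genes) and none rose. Beside C7 these included C1s1, a protease of the C1 complex, which stood at 156, 185 and 176 CPM at 100 µg/ml, against 236 to 274 CPM with a median of 252 CPM at the lower doses, a difference of -0.55 ± 0.077 (SE; adjusted p = 7.22e-07). C2 and C4b, the substrates of that protease, differed by -0.58 ± 0.12 and -0.60 ± 0.12; C4b has a close copy with which reads may be shared. Cfb, factor B of the alternative pathway, differed by -0.86 ± 0.16 and Clu, clusterin, an inhibitor of the terminal complex, by -0.58 ± 0.08. Untreated cells had less C1s1 than either dose range, at 105 ± 7.35 CPM (SD, n = 3).

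Growth factor genes were mixed. Of 17 genes for insulin-like growth factors and their binding proteins, 6 were lower (35.3%, against 8.79% of all genes) and 1 higher. Igfbp4 (chr11:99040005-99052655), a binding protein that withholds IGF from its receptor, stood at 344, 376 and 331 CPM at 100 µg/ml, against 693 to 839.8 CPM with a median of 804 CPM at the lower doses. Its difference was -1.16 ± 0.083 (SE; adjusted p = 1.24e-14), with groups far apart. Igfbp3 differed by -1.08 ± 0.18, the growth factor Igf1 itself by -0.69 ± 0.09 and Igfbp5 by -0.57 ± 0.08, while Igfbp6, which prefers IGF2, differed by 0.43 ± 0.08. Of 32 genes for other growth factors and receptors 4 were higher (12.5%, against 5.74% of all genes) and 3 lower (9.38%, against 8.79%). Hgf, a growth factor for epithelium, was lower (-0.80 ± 0.12), and Pdgfa, a growth factor for mesenchymal cells, was higher (0.56 ± 0.13), as was the receptor gene Fgfr1 (0.48 ± 0.09). Of 19 chemokine and cytokine genes 6 were lower (31.6%) and 3 higher (15.8%, against 5.74% of all genes). Il33, an alarmin of barrier tissue, stood at 16.2, 17.9 and 17.8 CPM at 100 µg/ml, against 33.8 to 48.00 CPM with a median of 43.3 CPM at the lower doses, a difference of -1.27 ± 0.14 (SE; adjusted p = 6.28e-09). Il6, a cytokine of injury and inflammation, stood at 1.98, 6.58 and 5.23 CPM at 100 µg/ml, against 5.71 to 15.04 CPM with a median of 7.82 CPM at the lower doses, a difference of -0.92 ± 0.29 (SE; adjusted p = 0.0235). Ccl8, a monocyte chemokine, differed by -1.03 ± 0.25, a call lost among the libraries of 1 header spelling (-0.69), while Ccl2, another of that kind, differed by 0.36 ± 0.12. The groups of Il6 overlapped, and its call was lost without the first (-0.59) or the third (-1.02) library of 100 µg/ml, the first of 1 µg/ml (-0.80) or the third of 10 µg/ml (-0.82), and among the libraries of 1 header spelling (-0.58). That of Ccl2 was lost without the first (0.37) or the second (0.26) library of 100 µg/ml, the third of 1 µg/ml (0.30) or the third of 10 µg/ml (0.30), and without the most abundant row of the table (0.34). Cxcl12, a homing chemokine, differed by -0.55 ± 0.07, and Csf1, the macrophage growth factor, by 0.53 ± 0.08. Of 16 NF-kB feedback and adhesion genes 2 were higher and 2 lower (12.5% each, against 5.74% and 8.79% of all genes). The adhesion genes Vcam1 and Icam1 differed by -0.51 ± 0.09 and 0.44 ± 0.09, and the NF-kB inhibitor gene Nfkbia was higher by 0.42 ± 0.09. Haptoglobin, Hp, differed by -0.98 ± 0.11.

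Contractile genes had more rises than falls. Of 26 genes of the actin and myosin apparatus 9 were higher (34.6%, against 5.74% of all genes) and 1 lower, with a median of 0.193. Acta2 (chr19:34240336-34255585), alpha smooth muscle actin, stood at 957, 965 and 950.4 CPM at 100 µg/ml, against 573 to 723 CPM with a median of 685 CPM at the lower doses. The libraries at 100 µg/ml were nearly identical and lay above all lower-dose libraries, with a difference of 0.50 ± 0.11 (SE; adjusted p = 6.14e-04), but below untreated cells at 1240.0 ± 109.8 CPM (SD, n = 3). Myl9, a regulatory myosin light chain, stood at 273, 238 and 227 CPM at 100 µg/ml, against 131 to 165 CPM with a median of 158 CPM at the lower doses, a difference of 0.67 ± 0.10 (SE; adjusted p = 3.94e-06). Zyx, a focal adhesion protein, differed by 0.40 ± 0.09, and Vcl, vinculin, which is in this list and the next, by 0.35 ± 0.11. The call of Vcl was lost without the first (0.34) or the third (0.29) library of 100 µg/ml, the first of 1 µg/ml (0.30) or the first of 10 µg/ml (0.30), and among the libraries of 1 header spelling (0.21). With scaling by totals alone 14 of the 26 were higher and none lower. Of 17 YAP and SRF target genes, which respond to cell tension, 7 were higher (41.2%) and none lower, and this count dropped to 3 without the third library of 100 µg/ml and to 4 without the first or the second. It was also 4 without the first library of 1 µg/ml or the first of 10 µg/ml. Amotl2, a feedback inhibitor of YAP, differed by 0.38 ± 0.09, and Ptpn14, a phosphatase that restrains YAP, by 0.50 ± 0.12. Ccn2, connective tissue growth factor, stood at 90.7, 96.5 and 96.8 CPM at 100 µg/ml, against 56.8 to 85.9 CPM with a median of 76.4 CPM at the lower doses. Its groups just parted, and the call, at 0.37 ± 0.10 (SE; adjusted p = 0.00909), was lost without the third library of 100 µg/ml (0.35). Against each lower dose alone, Ccn2 differed by 0.57 from 10 µg/ml and by 0.17 from 1 µg/ml, the latter not called. The summed level of the list of peribronchial fibroblast and smooth muscle markers was 1160 to 1180 CPM at 100 µg/ml, 754 to 926 CPM at the lower doses and 1390 to 1630 CPM in untreated cells, and its part in these results was not tested. Acta2 is in that list as well.

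Transforming growth factor beta (TGF-beta) drives matrix and contractile genes in fibroblasts. Of 21 genes of its pathway and response 7 were higher (33.3%, against 5.74% of all genes) and 2 lower, with a median of 0.198, and the higher count was 3 without the second or without the third library of 100 µg/ml. Smad3, a signal transducer of the pathway, stood at 48.3, 53.4 and 54.7 CPM at 100 µg/ml, against 32.6 to 46.1 CPM with a median of 37.9 CPM at the lower doses, a difference of 0.44 ± 0.12 (SE; adjusted p = 0.00874). Tgfb1, the ligand, differed by 0.36 ± 0.11 and Skil, a feedback repressor, by 0.38 ± 0.09. The call of Smad3 was lost without the second (0.42) or the third (0.40) library of 100 µg/ml and among the libraries of 1 header spelling (0.44). That of Tgfb1 was lost without the second (0.34) or the third (0.33) library of 100 µg/ml, the first of 1 µg/ml (0.30) or the first of 10 µg/ml (0.35), and with no filter (0.34), while that of Skil was kept without any 1 of the 9.

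Stress pathways differed from each other. Cells short of amino acids turn on transcription factor ATF4 in the integrated stress response. Of 26 genes of that response and of amino acid supply 8 were lower (30.8%, against 8.79% of all genes) and 2 higher. Phgdh, the first enzyme of serine synthesis, stood at 48.7, 56.3 and 59.9 CPM at 100 µg/ml, against 72.3 to 100.5 CPM with a median of 84.7 CPM at the lower doses, a difference of -0.63 ± 0.094 (SE; adjusted p = 3.62e-06). Cth, which makes cysteine, differed by -0.89 ± 0.16, and Pycr1, of proline synthesis, by -0.71 ± 0.17. Sesn2, sestrin, which restrains mTORC1, was 1 of the 2 higher genes, at 0.67 ± 0.16, a call lost without the third library of 100 µg/ml (0.55). Slc7a5, a transporter of large amino acids, and Asns, asparagine synthetase, differed by -0.59 ± 0.16 and -0.39 ± 0.10. The call of Slc7a5 was lost without the third library of 100 µg/ml (-0.48) and that of Asns without the first (-0.33), with scaling by totals alone (-0.28) and among the libraries of 1 header spelling (-0.31). The lower count of the list was 5 without that first library, with scaling by totals alone, or among the libraries of 1 header spelling. Of 26 targets of NRF2, the regulator of antioxidant genes, 7 were higher (26.9%, against 5.74% of all genes) and 2 lower, with a median of -0.0204. Gstm1, a glutathione transferase of a family of near-identical copies, stood at 336, 331 and 317 CPM at 100 µg/ml, against 174 to 233 CPM with a median of 214 CPM at the lower doses. It differed by 0.65 ± 0.081 (SE; adjusted p = 7.87e-08). Gclc, which limits glutathione synthesis, differed by 0.65 ± 0.15, Srxn1, sulfiredoxin, by 0.64 ± 0.10, the quinone reductase gene Nqo1 by 0.54 ± 0.12, and Hmox1, which breaks down haem, by 0.43 ± 0.10. The call of Hmox1 was lost without the third library of 100 µg/ml (0.33). Of 24 p53 targets 7 were higher (29.2%) and 1 lower, with 3 higher without the third library of 100 µg/ml or among the libraries of 1 header spelling. Phlda3, an inhibitor of AKT, stood at 385, 378 and 374 CPM at 100 µg/ml, against 222 to 282 CPM with a median of 253 CPM at the lower doses, a difference of 0.59 ± 0.084 (SE; adjusted p = 1.33e-06).

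Genes of the nucleus and the cell cycle gave few calls beyond histones. Of 14 histone genes 8 were lower (57.1%, against 8.79% of all genes) and none higher, with 4 lower among the libraries of 1 header spelling. H2bc4 differed by -1.29 ± 0.12 and the linker histone H1f2 by -1.03 ± 0.11. Histone genes have many near-identical copies and mostly lack poly(A) tails, so poly(A) selection takes few of them. Of 46 cell cycle genes 6 were lower (13%) and none higher. Ccnb2, a cyclin of mitosis, stood out at -1.48 ± 0.12 (SE; adjusted p = 2.03e-12); it stood at 19.4, 20.1 and 26.5 CPM at 100 µg/ml, against 50.9 to 72.3 CPM with a median of 63.8 CPM at the lower doses. Rbm3, an RNA-binding protein induced by cold, stood at 148, 178 and 151 CPM at 100 µg/ml, against 303 to 413 CPM with a median of 354 CPM at the lower doses, a difference of -1.15 ± 0.083 (SE; adjusted p = 1.76e-14).

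Of the lung fibroblast subsets, markers of adventitial cells were lower in part. Of 19 adventitial markers 8 were lower (42.1%, against 8.79% of all genes) and 1 higher, with a median of -0.467. Besides Penk, Il33 and Igfbp4 these were genes such as Clec3b, tetranectin (-0.58 ± 0.09), and Dpt, dermatopontin (-0.65 ± 0.10). The 1 higher marker was Igfbp6. The summed level of the adventitial list was 2250 to 2390 CPM at 100 µg/ml and 2760 to 3070 CPM at the lower doses. In untreated cells it was 1500 to 1580 CPM, below both. Of 17 alveolar markers 2 were lower and 2 higher (11.8% each, against 8.79% and 5.74% of all genes), with a median of 0.0806. Itga8, an integrin chain, stood at 153, 151 and 158 CPM at 100 µg/ml, against 78.8 to 97.3 CPM with a median of 84.7 CPM at the lower doses, a difference of 0.82 ± 0.087 (SE; adjusted p = 1.72e-09), and Wnt2, a signal of alveolar niches, differed by -0.80 ± 0.12. The summed alveolar markers were 2870 to 2980 CPM at 100 µg/ml, 2530 to 2850 CPM at the lower doses and 2500 to 2640 CPM in untreated cells. Thy1, a surface marker of many fibroblasts, differed by -0.80 ± 0.16.

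Markers of other cell types were counted as well. Summed macrophage and myeloid markers were 478 to 501 CPM at 100 µg/ml and 394 to 511 CPM at the lower doses, and 1 of 18 tested was higher (5.56%, against 5.74% of all genes), the lysosomal gene Cd68 (0.69 ± 0.20), a call lost among the libraries of 1 header spelling (0.44) or without the second at 100 µg/ml (0.53). Of the single markers, Lyz2, lysozyme, had 696 to 817 counts at 100 µg/ml and 540 to 835 at the lower doses. C1qb, a chain of C1q itself, had 55 to 60 counts at 100 µg/ml and 51 to 105 at the lower doses, and Csf1r, the receptor for Csf1, had 19 to 22 and 7 to 21. Mrc1, the mannose receptor, had 2 to 4 counts at 100 µg/ml and 2 to 7 at the lower doses. Summed endothelial markers were 94.3 to 110 CPM at 100 µg/ml and 112 to 134 CPM at the lower doses, with 2 of 13 lower (15.4%, against 8.79% of all genes), Kdr (-0.97 ± 0.30) and Egfl7 (-0.85 ± 0.21). The call of Kdr was lost without the second (-0.95) or the third (-0.84) library of 100 µg/ml, the second of 1 µg/ml (-0.89) or the third of 10 µg/ml (-0.84), and among the libraries of 1 header spelling (-0.95). Summed epithelial markers were 373 to 456 CPM at 100 µg/ml and 332 to 478 CPM at the lower doses, with 3 of 18 higher (16.7%, against 5.74% of all genes) and 1 lower. Summed mesothelial markers were 700 to 761 CPM at 100 µg/ml and 688 to 892 CPM at the lower doses, with 1 of 13 lower (7.69%, against 8.79% of all genes). Lymphocyte markers summed to at most 2.38 CPM at 100 µg/ml and 3.79 CPM at the lower doses, with Nkg7 and Cd2 among those at 0, and the haemoglobin genes Hba-a1 and Hba-a2 were at 0 as well. The part of these cell types in the results was not tested.

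Few genes separated the lower doses from each other in this fit. Against 1 µg/ml alone 1582 genes were called (11%), 543 higher (3.77%) and 1039 lower (7.21%) at 100 µg/ml, and against 10 µg/ml alone 1447 (10%), 486 higher (3.37%) and 961 lower (6.66%). These comparisons share the libraries at 100 µg/ml. Between 10 and 1 µg/ml edgeR called 7 genes (0.0485%), DESeq2 called 10, and 919 had an unadjusted p under 0.05 (6.37%). Of the 7, 6 were higher at 10 µg/ml (0.0416%) and 1 was lower (0.00694%). Basp1, Cebpb, Cop1, Gm5528, Lemd2 and Ppp1r14b were higher and C2cd4c was lower at 10 µg/ml; they are named because they are few, after their values were seen. Without the library of 1 µg/ml that stood apart the count was 168, and without the second of 1 µg/ml it was 0. The differences from each dose stood side by side as follows. Serpina3n differed by -1.30 from 1 µg/ml and -1.43 from 10 µg/ml, Igfbp4 by -1.16 and -1.16, and Lrp11 by 1.83 and 2.19. Eln differed by -1.02 and -0.70, and Aspn by 0.82 and 0.44. The median of the ribosomal protein list was 0.0998 between 10 and 1 µg/ml, with no member called.

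The same comparison at other times was made in other libraries. At 2 h it called 596 genes (4.13%), 179 higher (1.24%) and 417 lower (2.89%). At 48 h it called 2002 (13.9%), 787 higher (5.46%) and 1215 lower (8.43%), and at 72 h 2149 (14.9%), 952 higher (6.6%) and 1197 lower (8.3%). Of the 1268 genes lower at 24 h, 62 were also lower at 2 h (4.89% of them and 14.9% of those lower at 2 h). At 48 h 588 were (46.4% and 48.4%) and at 72 h 598 (47.2% and 50%). Of the 827 higher genes, 36 were higher at 2 h (4.35% and 20.1%), while 46 were lower there. At 48 h 255 were higher (30.8% and 32.4%) and at 72 h 256 (31% and 26.9%). All 4 times shared 8 higher and 31 lower genes. Ribosomal protein genes had no call at 2 h, 78 lower at 48 h and 82 lower at 72 h. Cholesterol synthesis genes had 2 higher at 2 h, 15 lower at 48 h and 16 lower at 72 h.

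A test of the difference between 24 h and the average of 2, 48 and 72 h called 526 genes (3.65%), 226 with a more positive value at 24 h and 300 with a more negative one. In the contractile list 11 of its 26 genes were more positive at 24 h and none more negative, where 1.57% of all genes were more positive. At 2 h it had 4 lower and no higher genes, at 48 h 11 lower and no higher, and at 72 h 12 lower and 2 higher. Acta2 differed by -0.16 at 2 h, 0.50 at 24 h, -0.44 at 48 h and -0.76 at 72 h. Ccn2 went in the same times through -1.22, 0.37, -0.83 and -0.35, and Myl9 through 0.03, 0.67, -0.29 and -0.52. Of the YAP and SRF targets 11 of 17 were more positive at 24 h and none more negative. Stress response and amino acid genes ran the other way, with 10 of 26 more negative at 24 h and none more positive, where 2.08% of all genes were more negative. That list had 9 higher and no lower genes at 48 h and 14 higher and no lower at 72 h. Phgdh differed by -0.12, -0.63, 0.02 and 0.40 at 2, 24, 48 and 72 h, and Atf5, a transcription factor of that response, by 0.10, -0.05, 0.85 and 1.24. Of the ER folding genes 8 of 27 were more negative at 24 h. Hsp90b1 differed by -0.14, -0.68, -0.09 and -0.13. Alveolar markers had 5 of 17 more negative at 24 h and 1, Itga8, more positive, with 6 higher at 48 h and 10 higher at 72 h and none lower at either.

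**Figure D5:**
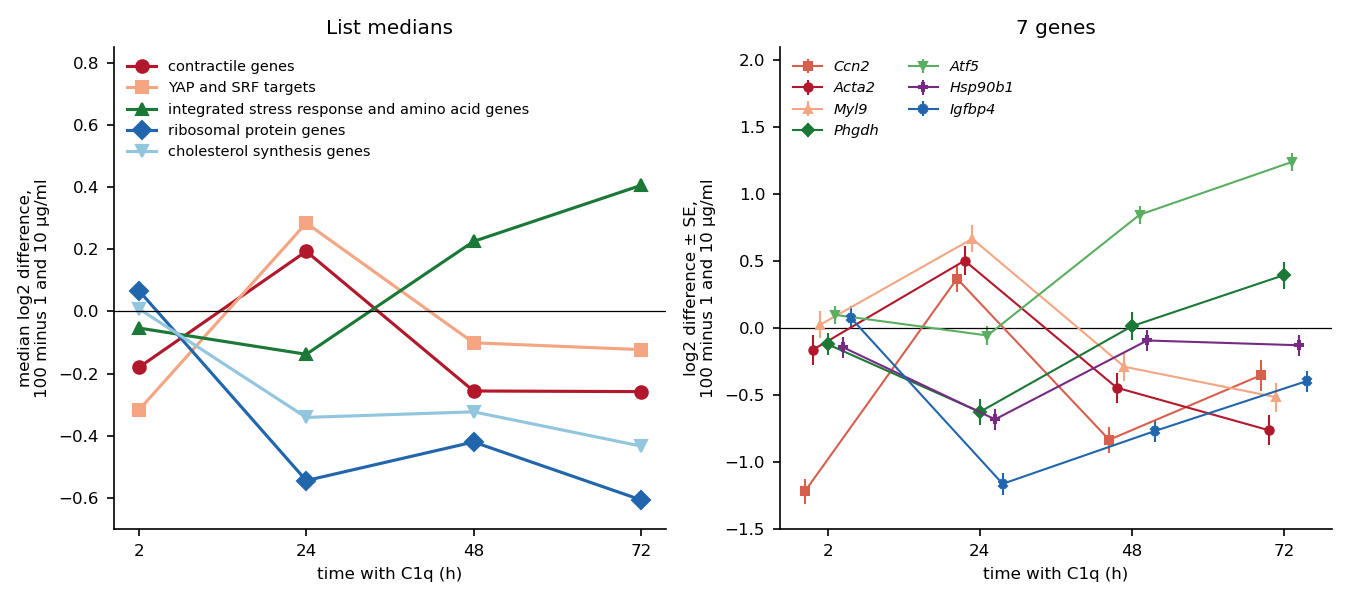
Log2 difference, 100 minus the average of 1 and 10 µg/ml, at 2, 24, 48 and 72 h. Left, medians of 5 gene lists. Right, 7 genes with bars of 1 SE. Contractile genes and YAP and SRF targets have medians above 0 at 24 h (0.193 and 0.284) and below 0 at the other times, while the ribosomal median is below 0 at 24, 48 and 72 h.

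The mean levels of the called genes were also set beside those of untreated cells. Of the 1268 genes lower at 100 µg/ml, 702 had means at 100 µg/ml farther from untreated than the lower doses, 190 had them nearer, and for 376 the doses lay on opposite sides of untreated cells. Of the 827 higher genes the counts were 388, 111 and 328. Positions were not counted over all genes tested, so these counts have no background to be read against. The genes were selected on the difference between 100 µg/ml and the lower doses, and the part of that selection in the counts was not tested. Serpina3n and C7 were among the nearer or opposite ones, with lower-dose levels well above untreated cells. Hsp90b1 and Fdps were among the more distant, below untreated cells at every dose.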

How the data were processed

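The values the authors deposited are unnormalized counts, for 30012 gene names in 39 columns, and every column was used. The submitters' processing notes name cutadapt 2.1.0, Bowtie2 2.4.2 and the build GRCm38. How reads were assigned to genes, on which strand and with what annotation is, in the sources used here, not given, so overlapping, antisense and near-identical genes cannot be told apart with certainty. Columns were matched to samples by the serial number in their names, and groups come from the labels.

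Counts of all 39 libraries were fitted in 1 model with a mean per group (edgeR 4.0.16, R 4.3.3), after edgeR's default filter (14419 genes, 99.4% of counts) and TMM scaling. Each contrast was tested with the quasi-likelihood test and Benjamini-Hochberg adjustment over all genes tested, with a threshold of 0.05. The weight of each lower dose was 0.5. What the p-values reflect is variation among the libraries sequenced, possibly technical only. The comparison, the 51 gene lists and the lists' members were chosen with earlier results of these data known. No test was made of a list as a whole: lists are described by counts of calls and by medians, to be read against those of all genes.

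Genes were named by a rule: the 15 largest rises and falls that were called, had a mean log2 CPM of at least 3, did not overlap between groups and kept the call with any of the 9 libraries left out, then members of the lists, then the 10 smallest p-values of the interaction. Predicted genes (5 of those eligible as higher and 41 as lower) were counted and not named. Replicate pairs were compared over genes with at least 20 counts. The principal components used log2 CPM with a prior count of 2. The test script was tried on simulated counts.

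Neat1, Malat1, Rbm3 and Hnrnpa3 were added after their values were seen. Alternatives were DESeq2 1.42.0, other scalings, no filter, a robust fit, thinned counts, only the libraries of 1 time, 1 header spelling, stricter thresholds and each library left out. Promoters, coordinates and lengths are from RefSeq's GRCm38.p6 and GENCODE vM21 tables, joined by symbol. Figures used matplotlib 3.10.9 under Python 3.11.15.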

Additional observations from a re-analysis of the deposited data

Results flagged for a closer look

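For 64 of the named genes the comparison of 100 µg/ml with the lower doses at 24 h differed from the average of the same comparison at 2, 48 and 72 h, by the interaction test over all 39 libraries (edgeR's quasi-likelihood test, adjusted p under 0.05). The values are the log2 difference at 24 h minus that average, and a positive value means a more positive difference at 24 h. Of all 14419 genes tested, this test called 526 (3.65%). Ccn2, Atf5, Thbs1, Adm, Igfbp4, Lrat, St3gal4, Myl9, Acta2 and Serpina3n met the naming rule of the smallest p-values in this same test. Their calls therefore follow from that rule. Others were named for the largest differences at 24 h, which favours a difference from the other times. The 64 can therefore not be set against that share of all genes. In the contractile, YAP and SRF and related adhesion genes the values were Ccn2 1.17, Thbs1 0.97, Acta2 0.96, Myl9 0.93, Vcl 0.78, Amotl2 0.62 and Zyx 0.50. In genes of secreted signals they were Adm 0.82, Ccl2 0.86 and Csf1 0.62, and Adm, adrenomedullin, like Thbs1 was not called at 24 h itself. In amino acid and stress response genes they were Atf5 -0.78, Phgdh -0.72, Asns -0.68, Cth -0.85, Pycr1 -0.85 and Slc7a5 -0.71. Atf5 was not called at 24 h itself. In ER folding and collagen folding genes they were Hsp90b1 -0.56, Calr -0.47, Pdia6 -0.41, Sec61b -0.67, Sdf2l1 -0.63, Hspa5 -0.36 and Serpinh1 -0.37. The other genes with a more positive difference at 24 h were Gpr176 0.90, Cd68 0.85, Hspa1b 0.59, Skil 0.55, Malat1 0.45, Itga8 0.42 and Aspn 0.41. Those with a more negative difference at 24 h were Arsi -1.17, Arxes1 -1.05, Tm7sf2 -0.93, Lrat -0.92, Ccnb2 -0.91, Aldh1a3 -0.88, H2bc4 -0.88, Hp -0.87, St3gal4 -0.84, Pcsk5 -0.82, Igfbp4 -0.80, Frmd5 -0.80, Penk -0.79, Neat1 -0.72, Il33 -0.70, Serpina3n -0.69, Thy1 -0.68, Mvd -0.64, Mt1 -0.64, Arxes2 -0.64, C2 -0.60, Wnt2 -0.60, Clec3b -0.59, Mmp8 -0.57, Igfbp5 -0.56, Col3a1 -0.51, Vcan -0.51, Timp1 -0.49, Fbln1 -0.48, Rbm3 -0.43, Tpt1 -0.42, Col1a1 -0.40, C1s1 -0.34 and Col1a2 -0.31.

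The test for an outlying sample in a group's values needs groups of more than 3 and was not run here. At 24 h the third library of 1 µg/ml, whose counts differed from those of its replicates, is described with the principal components.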

How the results depend on the processing

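The count of 2095 calls became 1122 among the libraries of 1 header spelling (386 higher, 736 lower), 1137 at an adjusted p under 0.01 (322 and 815) and 191 with a log2 difference of at least 1 (82 and 109). Scaling by totals alone gave 1887 higher and 775 lower, DESeq2 488 higher, and a fit of only the libraries at 24 h 534 higher. Leaving out each library gave 1294 to 2536 calls, 420 to 988 higher and 874 to 1548 lower. Fits of only 1 time called 1050 genes against 1 µg/ml, 923 against 10 µg/ml and 385 at 2 h. Leave-outs gave 920 to 2203 calls against 1 µg/ml, 939 to 1080 against 10 µg/ml, 0 to 168 between 10 and 1 µg/ml (81 with no filter), 323 to 595 at 2 h, 1217 to 1910 at 48 h, 1405 to 2056 at 72 h and 277 to 979 for the difference between times, the highest of the last without the third library of 1 µg/ml and the lowest without the third of 100 µg/ml. The cause of these changes was not tested, apart from fewer libraries or a stricter threshold by construction. Atf5 (0.0596) and Thbs1 (0.0294) changed sign with scaling by totals alone, and neither was called. The difference in ribosomal share stayed between -2.52 and -2.06 points on leaving out a library. No paired analysis was possible because the serial numbers of the libraries are shared by no groups. At 2313243 to 2884110 counts per library, genes near the filter have few counts, and differences there were not detectable unless large.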

Other observations

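Further lists were counted in the same way, against 8.79% of all genes lower and 5.74% higher. Among 17 prostaglandin genes 5 were lower at 100 µg/ml (29.4%) and 1 higher (5.88%), with 3 lower without the first or the third library of 100 µg/ml. Ptger4, a receptor for prostaglandin E2, stood at 6.73, 10.6 and 9.75 CPM at 100 µg/ml, against 20.3 to 24.2 CPM with a median of 21.9 CPM at the lower doses, a difference of -1.28 ± 0.15 (SE; adjusted p = 4.31e-08), with no overlap. At 2, 48 and 72 h it differed by -1.42, -1.40 and -0.85. Of 11 hyaluronan genes 5 were lower (45.5%) and none higher, with 3 lower without the first library of 100 µg/ml. Has2, the main hyaluronan synthase of fibroblasts, stood at 9.50, 9.50 and 8.01 CPM at 100 µg/ml, against 12.1 to 22.4 CPM with a median of 16.3 CPM at the lower doses, a difference of -0.86 ± 0.16 (SE; adjusted p = 1.33e-04). It differed by -1.21 from 1 µg/ml and by -0.50 from 10 µg/ml. Of 30 interferon-induced genes 2 were higher (6.67%, close to the 5.74% of all genes) and none lower, with a median of 0.313 against 0.0282 over all genes.

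The long nuclear RNAs Neat1 and Malat1 moved in opposite directions. Neat1, the scaffold of paraspeckles, stood at 166, 155 and 172 CPM at 100 µg/ml, against 348 to 398 CPM with a median of 369.7 CPM at the lower doses, a difference of -1.18 ± 0.082 (SE; adjusted p = 6.72e-15). Its untreated level was 167 ± 3.89 CPM (SD, n = 3), and its difference was -1.47 at 2 h, -0.06 at 48 h and 0.15 at 72 h. Malat1 stood at 8705, 8275 and 8698 CPM at 100 µg/ml, against 4769 to 6521 CPM with a median of 5287 CPM at the lower doses, a difference of 0.65 ± 0.087 (SE; adjusted p = 4.14e-07). Lrat, which stores retinol as esters, had 58.99, 72.4 and 66.9 CPM at 100 µg/ml, against 108 to 128 CPM (median 116) at the lower doses, a difference of -0.83 ± 0.094 (SE; adjusted p = 8.66e-09), and St3gal4, a sialyltransferase, had 103, 96.5 and 106 CPM at 100 µg/ml, against 142 to 185 CPM (median 156) at the lower doses, a difference of -0.65 ± 0.088 (SE; adjusted p = 5.69e-07). The metallothionein gene Mt1 had 148 to 185 CPM at 100 µg/ml and 119 to 186 CPM at the lower doses, with overlap, and a difference of 0.18 ± 0.11 (SE; adjusted p = 0.311) at 24 h beside 1.25 at 48 h and 1.60 at 72 h.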
